A study of Mus musculus with 42 samples.

Results

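Hippocampus of mice that carried the PDE10A knockout label and had received a PDE10 inhibitor was set against hippocampus of wild-type mice that had received vehicle. The 2 conditions, genotype and drug, thus differ together in this comparison. Arrays were taken by their titles: 5 arrays of labelled knockout mice on inhibitor (KO PDE10i, arrays 34, 35, 36, 37 and 39) and 6 arrays of wild-type mice on vehicle (WT vehicle, arrays 1 to 6), 11 of the 42 arrays in the study. All mice were of strain C57BL6, and the brain regions had been microdissected and snap-frozen. The labels name neither the inhibitor compound nor its dose, the time from dosing to dissection, the age of the animals or the part of the gene removed. The study crossed genotype with treatment in striatum and hippocampus, giving 8 groups. The other hippocampal groups were 5 KO vehicle and 6 WT PDE10i arrays, and the striatal groups used below were 4 KO PDE10i and 5 WT vehicle arrays. The labels do not state that each array is a separate animal, so a p-value here reflects only how far these samples spread, which may be technical.

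PDE10A is an enzyme that degrades cAMP and cGMP, second messengers that activate protein kinases A and G and, through them, transcription factors such as CREB. It is abundant in the projection neurons of the striatum and low in hippocampus. A gene altered by targeting can carry along a stretch of linked chromosome from the embryonic stem cells in which the allele was made. The labels do not name the stem cells, and the part of linked DNA in the results below was not tested.

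The files hold log2 signals after RMA, a method that normalizes all arrays to a common distribution, so a difference in total RNA between groups would not be seen. Array medians lay between 6.05 and 6.12. The tissue label was checked against regional markers. Neurod6, a transcription factor of hippocampal pyramidal neurons, had log2 signals of 10.48 to 10.87 in KO PDE10i and 10.58 to 10.92 in WT vehicle hippocampus, above the 4.6 to 8.85 and 3.78 to 7.96 of the matching striatal groups. Prox1, a transcription factor of dentate granule cells, was likewise higher in hippocampus (7.01 to 7.36 and 6.72 to 7.6) than in striatum (5.09 to 5.96 and 5.15 to 6.27). Drd1, the dopamine receptor of striatal projection neurons, was lower in hippocampus (6.22 to 7.27 and 6.72 to 7.81) than in striatum (10.98 to 11.68 and 11.4 to 11.83). C1ql2 and Grik4 also lay higher in hippocampus, but not every marker separated the regions. Wfs1 overlapped (hippocampus 10.02 to 10.53 and 9.91 to 10.93, striatum 10.28 to 10.61 and 9.9 to 10.56), as did Pvalb. Slc17a7 overlapped in KO PDE10i (hippocampus 10.69 to 11.21, striatum 6.57 to 10.76) but not in WT vehicle (10.85 to 11.39 and 6.42 to 9.82). In bulk tissue, fewer cells of a type and less RNA per cell cannot be told apart.

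Pde10a, the targeted gene, was not lower in the arrays labelled KO. Its brightest probe set read 9.51, 9.8, 9.73, 9.59 and 9.81 on KO PDE10i arrays 34, 35, 36, 37 and 39, against a range of 8.94 to 9.04 with a median of 9.01 on the 6 WT vehicle arrays. Every KO PDE10i array lay above every WT vehicle array. The difference was 0.69 ± 0.20 (log2, SE) and did not pass the test across all genes (limma, adjusted p = 0.327). It passed when the arrays of the other hippocampal groups were left out of the fit (adjusted p = 0.000184), and also when only the 4 arrays named next were left out (adjusted p = 0.0222), a choice made on Pde10a itself that narrows its spread by construction. Of the other 4 Pde10a probe sets, 3 differed by 0.51, 0.70 and 0.77 and the last by 0.01, none past the threshold. Where the probe sets lie relative to the deletion is not known, so Pde10a is no check on loss of the enzyme, and all statements on genotype rest on the labels.

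Within the other hippocampal groups, Pde10a set single arrays apart. KO vehicle arrays 25 and 26 read 9.04 and 9.08, near WT vehicle, and WT PDE10i arrays 12 and 14 read 9.88 and 9.84, near KO PDE10i. These 4 arrays belong to neither side of the comparison, but they enter the fit's estimate of the spread. The passing counts, the passing genes and the pieces of the effect are given with and without them. Because the arrays were singled out by Pde10a and chromosome 17 signals, lower p-values of chromosome 17 genes without them are fixed in part by that choice and are no separate support.

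Across 18193 tested genes, 6 passed the threshold (adjusted p under 0.05), which is 0.033% of all. Of these, 3 were higher in KO PDE10i (0.0165%) and 3 lower (0.0165%). All 6 lie on chromosome 17, the chromosome of Pde10a, and within 20 Mb of it in assembly GRCm38.p6, although chromosome 17 holds 834 of the tested genes. None of the 17359 genes on other chromosomes or of unknown place passed, while 1199 of them had an unadjusted p under 0.05. The count rested on single arrays. It was 0 without KO PDE10i 35, 37 or 39 or without WT vehicle 2 or 3, with 956, 1063, 1254, 1147 and 1129 genes at an unadjusted p under 0.05 in these 5 fits. It was 2 without KO PDE10i 34 or 36 or without WT vehicle 5 or 6, 3 without WT vehicle 1 and 7 without WT vehicle 4. With only the arrays of both groups in the fit it was 22, of which 20 on chromosome 17, and without the 4 doubted arrays 25, of which 23 on chromosome 17. With arrays centred on their median 10 genes passed, 7 of them higher. The 4 doubted arrays were singled out by chromosome 17 signals, which favours genes of that chromosome in the count without them.

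Tmem181a, a transmembrane protein whose human counterpart was found in a screen for host factors of a bacterial toxin, gave the smallest p. It read 11.02, 11.1, 11.15, 11.12 and 11.32 on KO PDE10i arrays 34, 35, 36, 37 and 39, against 10.08 to 10.5 with a median of 10.38 on WT vehicle arrays. The groups did not overlap. Tmem181a was 1.73-fold higher in KO PDE10i (log2 0.79 ± 0.117 SE, n = 5 against 6, limma adjusted p = 0.0182). Only 1 probe set names it, and the mouse genome holds copies of this gene (Tmem181b-ps and Tmem181c-ps) whose transcripts the probe set may also read. Leaving out the doubted arrays gave an adjusted p of 0.000395. Map3k4, a kinase kinase kinase upstream of the p38 and JNK pathways, read 9.4, 9.63, 9.44, 9.57 and 9.59 on the KO PDE10i arrays in the same order, against 9.02 to 9.23 with a median of 9.12 on WT vehicle arrays. Again no array of either group lay within the other. The difference was 1.31-fold (log2 0.39 ± 0.066, adjusted p = 0.0283, and 0.00871 without the doubted arrays). The other 3 Map3k4 probe sets gave smaller differences of 0.14, 0.14 and 0.20. Promoter windows of these genes are shown because CREB, which cAMP activates, binds a defined motif. Each runs from 250 bases before to 50 after the start of transcription in RefSeq (GRCm38.p6), 5′ to 3′ along the gene's strand, Map3k4 at chr17:12318611-12318910 on the minus strand and Tmem181a at chr17:6256610-6256909 on the plus strand, with a short form of the motif in capitals.
Map3k4: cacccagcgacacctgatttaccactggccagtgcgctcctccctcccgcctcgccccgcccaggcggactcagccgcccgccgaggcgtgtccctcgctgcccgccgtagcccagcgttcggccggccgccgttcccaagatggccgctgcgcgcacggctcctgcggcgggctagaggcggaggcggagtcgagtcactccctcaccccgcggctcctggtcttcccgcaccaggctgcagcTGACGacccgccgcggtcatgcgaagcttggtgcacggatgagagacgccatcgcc
Tmem181a: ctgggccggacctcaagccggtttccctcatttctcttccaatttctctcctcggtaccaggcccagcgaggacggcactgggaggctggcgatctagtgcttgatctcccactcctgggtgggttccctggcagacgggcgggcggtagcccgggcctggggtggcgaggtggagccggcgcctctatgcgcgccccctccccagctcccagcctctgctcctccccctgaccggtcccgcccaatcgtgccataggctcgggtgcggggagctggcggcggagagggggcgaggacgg
The motif TGACGTCA, which is its own reverse complement, was searched on both strands, as was its short form TGACG, which the full motif contains. None of the 10 windows of the 6 passing genes held the full motif, which 1.79% of all 32851 windows hold. The short form stood in 1 of the 10 windows (10.0%), that of Map3k4, beginning 6 bases before the start, against 20.8% of all windows. A match of letters is a description, not a binding site.

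Wtap codes for a subunit of the complex that writes N6-methyladenosine on mRNA. It read 9.3, 9.35, 9.54, 9.25 and 9.21 on KO PDE10i arrays 34, 35, 36, 37 and 39, against 8.69 to 9.08 with a median of 8.8 on WT vehicle arrays. All KO PDE10i arrays were higher than all WT vehicle arrays. Its difference was 1.39-fold (log2 0.48 ± 0.083, adjusted p = 0.0309, and 0.00762 without the doubted arrays). The second Wtap probe set differed by only 0.04. With only the arrays of both groups in the fit, Wtap missed the threshold (adjusted p = 0.0555).

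The 3 genes that fell were Prr18, Lix1 and Kctd5. Prr18, a gene for a proline-rich protein that lies 2 tested genes from Pde10a, had the largest fall of the 3. It read 8.4, 8.48, 8.02, 8.25 and 8.47 on KO PDE10i arrays 34, 35, 36, 37 and 39, against 8.78 to 9.5 with a median of 9.26 on WT vehicle arrays, without overlap. The log2 difference was -0.90 ± 0.149 (adjusted p = 0.0283, and 0.00209 without the doubted arrays). Its other probe set, of similar brightness, differed by 0.05. Lix1, named for its expression in the developing limb of chick, read 7.46, 7.34, 7.69, 7.54 and 7.44 on the same arrays, against 7.79 to 8.11 with a median of 7.92. The lowest WT vehicle array lay above the highest KO PDE10i array. Lix1 fell by 0.43 on the log2 scale (SE 0.073, adjusted p = 0.0283, and 0.0156 without the doubted arrays). Kctd5, an adaptor protein of cullin ubiquitin ligases, read 7.48, 7.42, 7.5, 7.52 and 7.51, against 7.62 to 7.99 with a median of 7.83. Its KO PDE10i arrays lay close together, and its groups did not overlap. Kctd5 fell by 0.33 on the log2 scale (SE 0.059, adjusted p = 0.0380, and 0.0141 without the doubted arrays). It missed the threshold with only the arrays of both groups in the fit (adjusted p = 0.0617), and its second probe set differed by -0.05.

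**Figure D1:**
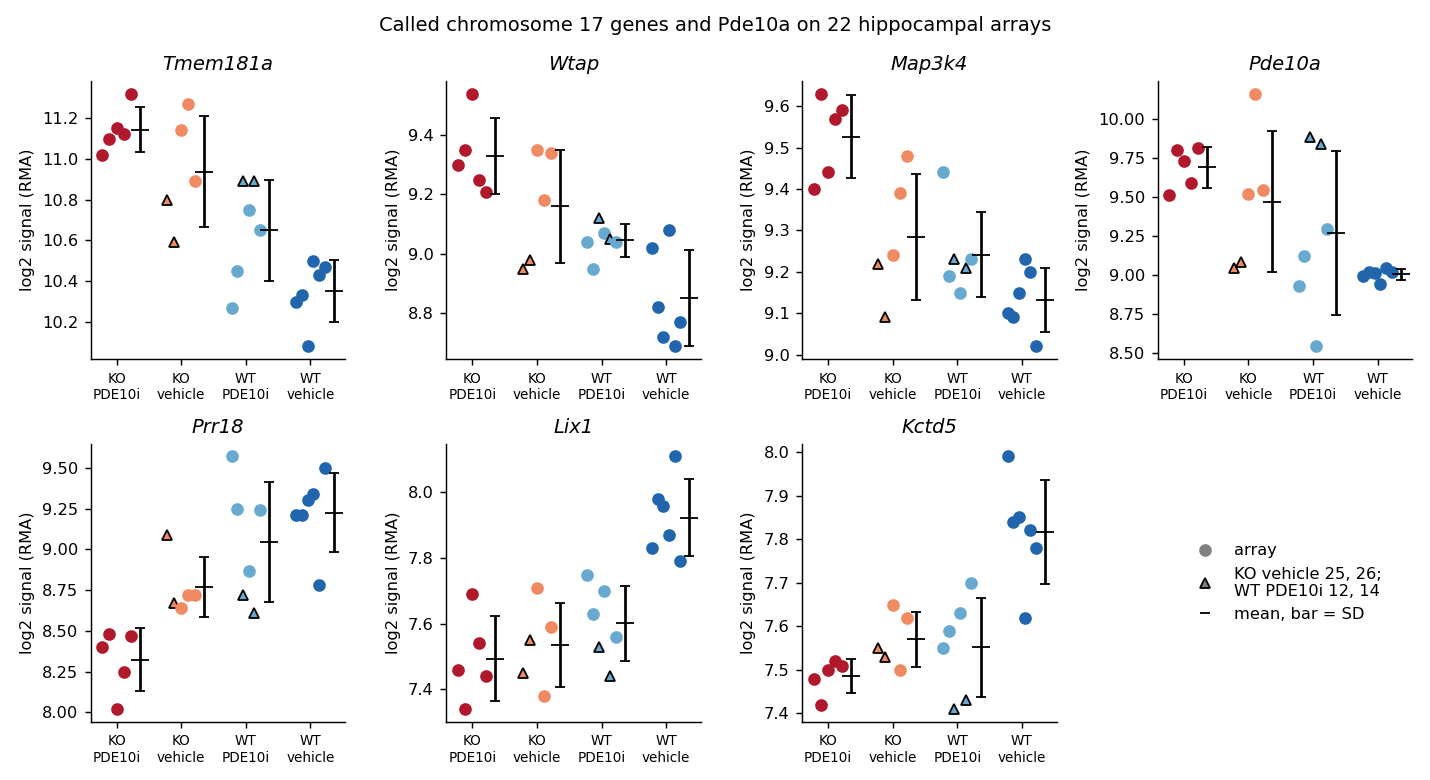
Log2 signal (RMA) of the 6 chromosome 17 genes that passed the threshold and of Pde10a on 22 hippocampal arrays, 1 point per array, with the mean and SD of each group beside the points. Triangles mark KO vehicle 25 and 26 and WT PDE10i 12 and 14. KO PDE10i and WT vehicle points do not overlap in any panel, and the KO vehicle and WT PDE10i groups lie between or across them.

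The intermediate groups bear on how the combined difference divides between label and drug, but they hold the 4 doubted arrays: 2 of the 5 KO vehicle and 2 of the 6 WT PDE10i arrays. The doubted arrays were singled out by Pde10a and chromosome 17 signals, and the 6 genes lie on that chromosome. Changes in the pieces without these arrays are thus fixed in part by that choice and do not show how label and drug divide. For Tmem181a, KO vehicle minus WT vehicle was 0.59 ± 0.117 with these arrays and 0.75 ± 0.110 without them, and the inhibitor within KO gave 0.20 ± 0.123 with and 0.04 ± 0.113 without them. For Wtap the same pieces were 0.31 ± 0.083 and 0.17 ± 0.087 with the arrays, and 0.44 ± 0.087 and 0.04 ± 0.090 without them. For Map3k4 the larger piece changed with them: label and inhibitor gave 0.15 ± 0.066 and 0.24 ± 0.069 with the arrays, and 0.24 ± 0.073 and 0.16 ± 0.076 without them. Prr18 gave -0.46 ± 0.15 and -0.44 ± 0.16 with them, and -0.53 ± 0.15 and -0.37 ± 0.15 without them. In Lix1 and Kctd5 the label gave -0.39 ± 0.073 and -0.25 ± 0.059 with the arrays and -0.36 ± 0.085 and -0.23 ± 0.064 without them. The inhibitor within KO gave -0.04 ± 0.076 and -0.08 ± 0.061 with them and -0.07 ± 0.088 and -0.10 ± 0.066 without them. WT PDE10i arrays were also below WT vehicle in both genes, with differences of -0.32 ± 0.069 and -0.27 ± 0.056 with the arrays. Without them the differences were -0.26 ± 0.078 and -0.20 ± 0.059. In Tmem181a and Wtap the inhibitor within WT gave 0.299 ± 0.112 and 0.195 ± 0.079 with the arrays. Without them it gave 0.178 ± 0.1002 and 0.176 ± 0.0795. For Map3k4 it gave 0.11 ± 0.063 with and 0.12 ± 0.067 without them. For Prr18 it gave -0.18 ± 0.142 with and 0.0057 ± 0.132 without them.

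With all arrays, none of these pieces passed the test across all genes (limma). For KO vehicle against WT vehicle the count was 0 (1205 reached an unadjusted p under 0.05), and it was 15 without the doubted arrays, 14 of them on chromosome 17, Tmem181a among them (adjusted p = 0.00663). The inhibitor passed 0 genes within KO (695 at an unadjusted p under 0.05) and 0 within WT (1948), and again 0 in both without the doubted arrays (389 and 1003). KO against WT arrays, both on inhibitor, passed 1 gene (2836 reached an unadjusted p under 0.05), and the count was 10 without the doubted arrays, all on chromosome 17. The 1 gene was Gtf2a1l, a form of the transcription factor TFIIA of male germ cells (-0.33 ± 0.053, adjusted p = 0.0461), which is dim here (mean 3.65 in KO PDE10i), was named after its value was seen, and was not among the 10. These comparisons share arrays with the combined one, so their values are set side by side and not counted as separate evidence. The doubted arrays are members of the KO vehicle and WT PDE10i groups and were singled out by Pde10a and chromosome 17 signals. The chromosome 17 genes that passed without them are thus fixed in part by that choice and are no support.

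Beyond the 6 genes, low p-values gathered in the same stretch of chromosome 17. Of 262 tested genes within 20 Mb of Pde10a, 29 had an unadjusted p under 0.001 (11.1%), against 39 of 17359 elsewhere (0.225%) and 0.385% of all tested genes. Groups did not overlap for 40 of the 262 (15.3%), against 0.91% of the genes elsewhere and 1.15% of all. Farther along the chromosome, 2 of 570 genes had such a p (0.351%). At an unadjusted p under 0.05 there were 70 of these 570 (12.3%), against 6.91% of the genes elsewhere and 24.4% within 20 Mb. Their groups did not overlap for 1.93%. Counting tested genes from Pde10a at 0, the 29 genes lay between places -13 and 150, a run of 164 tested genes. In the 50 genes after Pde10a 4 had such a p (8%), in the next 50 there were 11 (22%), in places 101 to 150 there were 9 (18%), and in places 151 to 200 none. Among the 25 genes on the near side of Pde10a there were 5 (20%).

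**Figure D2:**
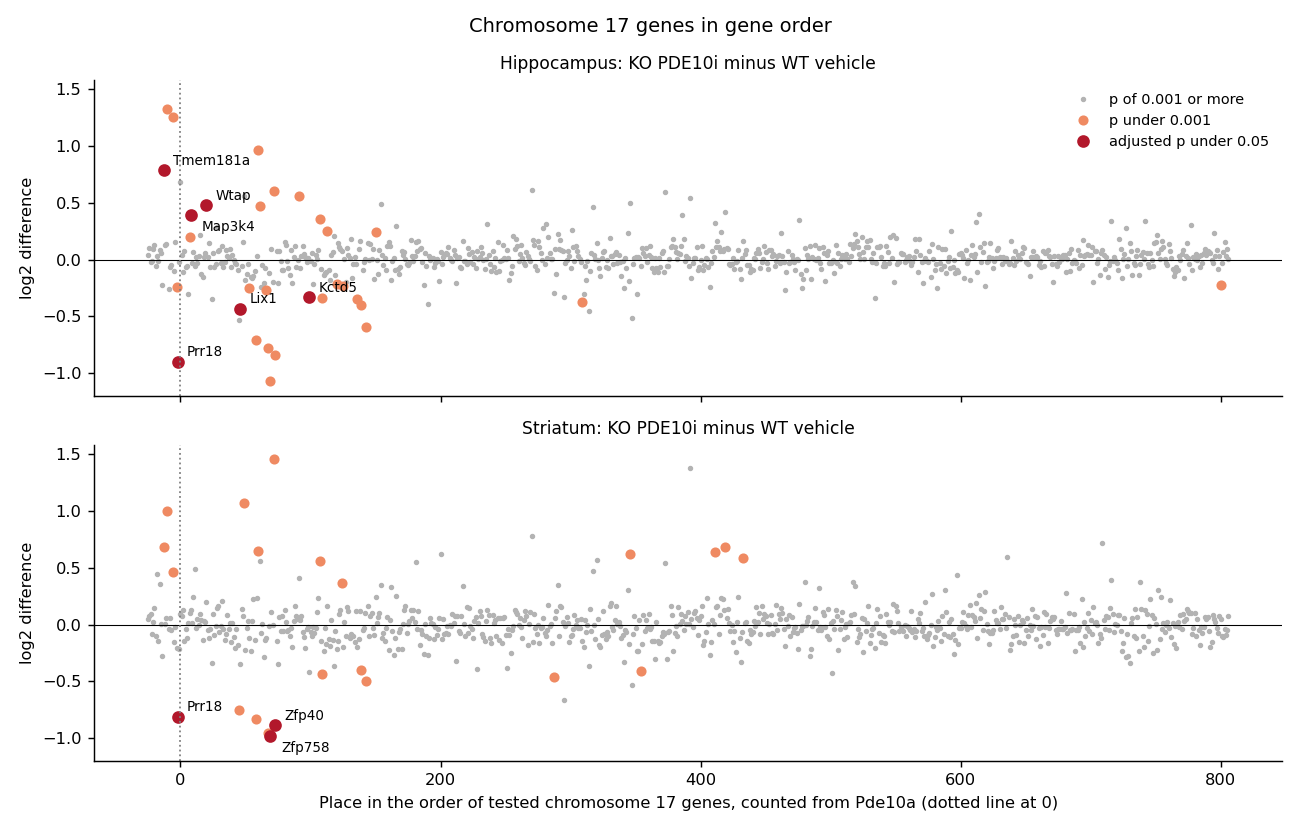
Log2 difference, KO PDE10i minus WT vehicle, of each tested gene of chromosome 17 in its order along the chromosome from Pde10a, in hippocampus (top) and striatum (bottom). Dark red points passed an adjusted p of 0.05 and orange points had an unadjusted p under 0.001. In hippocampus the coloured points crowd between places -13 and 150, in both directions, with 2 farther away.

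The 29 genes went both ways: 13 were higher and 16 lower in KO PDE10i, and in 27 of them the groups did not overlap, which a choice by small p favours. The members named in the rest of this paragraph were chosen after their values were seen, and none of them passed the test across all genes. Fndc1, a gene with fibronectin type domains, had the largest positive difference (log2 1.33 ± 0.264, adjusted p = 0.0857, mean 7.32 ± 0.253 in KO PDE10i and 5.99 ± 0.246 in WT vehicle, SD), and Ccr6, the receptor of the chemokine CCL20, the next (1.26 ± 0.238, adjusted p = 0.0644). Zfp758 had the largest negative one (-1.07 ± 0.257, adjusted p = 0.198). Abca3, a lipid transporter, differed by 0.36 ± 0.074 (adjusted p = 0.0997), with narrow groups (9.52 ± 0.044 in KO PDE10i and 9.16 ± 0.037 in WT vehicle, SD). Eci1, an enzyme of fatty acid oxidation, differed by -0.34 ± 0.067 (adjusted p = 0.0847), and Tsc2, which codes for the mTOR inhibitor tuberin, by -0.21 ± 0.052 (adjusted p = 0.198). Zinc-finger genes of the Zfp series, many of them repressors with close sequence relatives, made up 9 of the 29. Within 20 Mb 24 Zfp genes were tested, and 12 had an unadjusted p under 0.05, 3 higher and 9 lower, beside 64 of all 262 genes of the stretch (24.4%), 27 higher and 37 lower. Since such genes resemble each other, a probe set may read more than 1 of them.

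**Figure D3:**
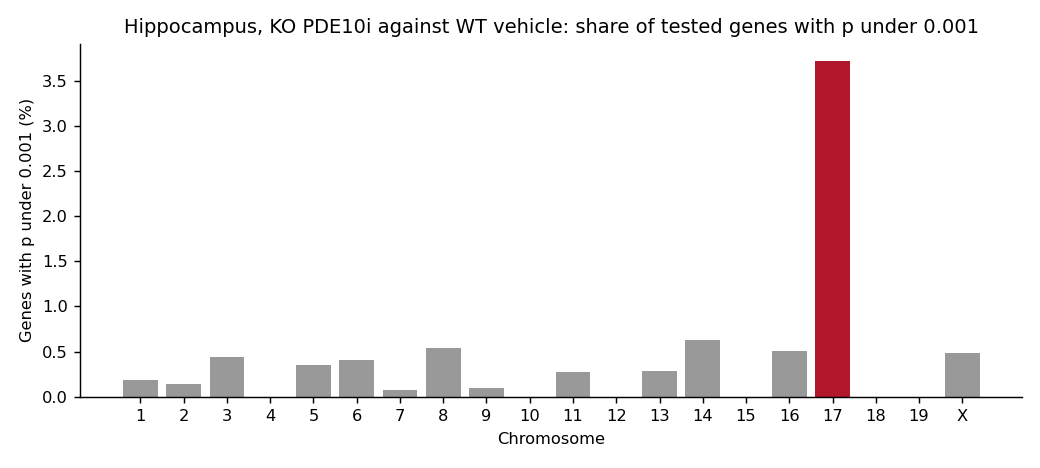
Share of tested genes with an unadjusted p under 0.001 in hippocampus, KO PDE10i against WT vehicle, as a bar for each chromosome. Chromosome 17 reached 3.72%, against 0.225% of the genes not on it, and its bar is the tallest.

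The stretch had the same direction in striatum, in other samples of the same labels. All 29 genes had the same sign there, 20 with an unadjusted p under 0.05, against 6.26% of all tested genes. Among genes with an unadjusted p under 0.05 in hippocampus the striatal sign was the same for 58 of 64 within 20 Mb. It was the same for 57 of 70 farther along chromosome 17 and for 865 of 1199 not on it. Striatal and hippocampal arrays may come from the same mice, which the labels do not settle. Both regions were also read through the same brightest probe set of each gene. For Prr18, Wtap and Kctd5 that probe set gave -0.81, 0.20 and -0.41 in striatum, but the second one gave 0.10, 0.002 and -0.04. Other Map3k4 probe sets gave 0.01, 0.02 and 0.07 in striatum (brightest 0.13), and other Zfp40 probe sets gave -0.69, -1.14 and -0.18. Of the 29, 3 passed the test in striatum: Prr18 (-0.81 ± 0.155, adjusted p = 0.0382), Zfp758 (-0.98 ± 0.178, adjusted p = 0.0264) and Zfp40 (-0.89 ± 0.118, adjusted p = 0.00516). Zfp40 was close to its striatal size in hippocampus (-0.84 ± 0.176, adjusted p = 0.124). Its hippocampal signals were 6.85, 6.91, 6.72, 7.07 and 6.93 on KO PDE10i arrays 34, 35, 36, 37 and 39, against 7.56 to 7.87 with a median of 7.74 on WT vehicle arrays. The groups lay apart by more than either group's range. The difference between regions passed the test for none of the 29 genes.

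Each array was then placed by the 29 genes, counting for how many its signal lay nearer the KO PDE10i mean than the WT vehicle mean, with the array itself left out of the means. KO PDE10i arrays counted 27 to 29 and WT vehicle arrays 0 to 3, which the choice of genes fixes. The groups that did not choose the genes were split. KO vehicle arrays 28, 29 and 30 counted 26, 27 and 27, but KO vehicle 25 and 26 counted 6 and 12. WT PDE10i arrays 10, 11, 13 and 15 counted 8, 6, 7 and 7, but WT PDE10i 12 and 14 counted 25 and 23. In striatum KO vehicle 25 counted 5 and the other KO vehicle arrays 20 to 24, while WT PDE10i 13, 14 and 15 counted 20 each and the other WT PDE10i arrays 4 to 9. Over the 39 genes not on chromosome 17 with an unadjusted p under 0.001 (limma), the doubted hippocampal arrays did not stand apart. KO vehicle 25 and 26 counted 26 and 19 there, and KO vehicle 28, 29 and 30 counted 16, 27 and 28. WT PDE10i 12 and 14 counted 18 and 15, and WT PDE10i 10, 11, 13 and 15 counted 5, 11, 16 and 25. These counts say nothing about the labels of the compared arrays themselves.

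**Figure D4:**
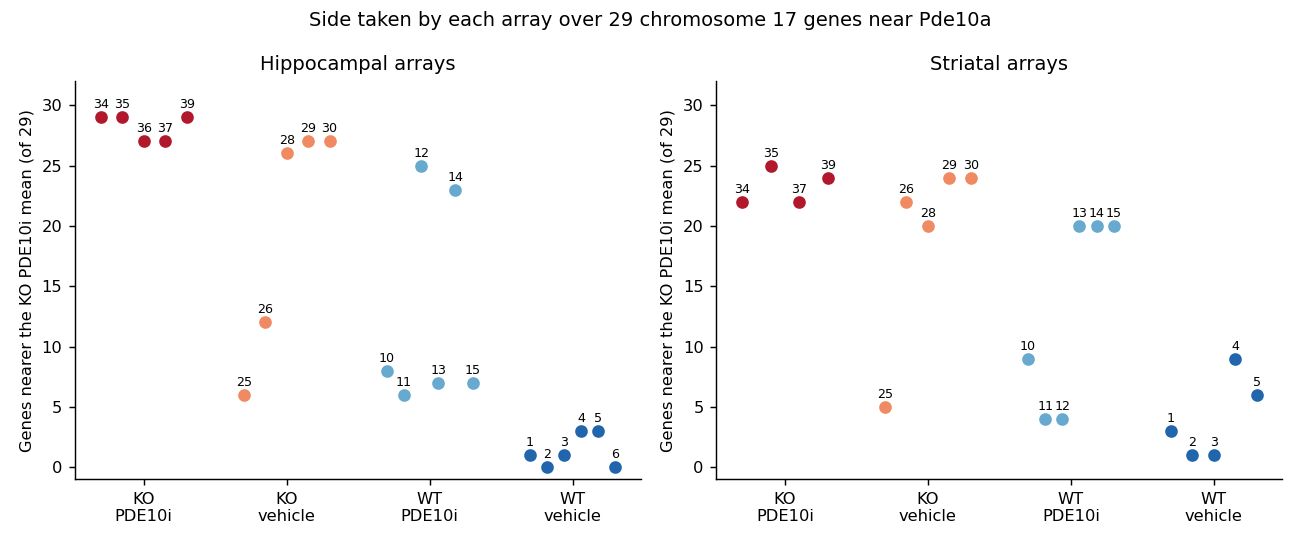
Number of the 29 chromosome 17 genes, out of 29, for which each array lay nearer the KO PDE10i mean than the WT vehicle mean of its region, with hippocampal arrays on the left and striatal arrays on the right and array numbers above the points. KO vehicle 25 and 26 and WT PDE10i 12 and 14 sit apart from their hippocampal groups, and KO vehicle 25 and WT PDE10i 13, 14 and 15 from their striatal groups.

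Outside chromosome 17 the comparison gave 39 genes with an unadjusted p under 0.001, 21 higher and 18 lower, none past the threshold (smallest adjusted p = 0.0644). Lrrc8c and P4ha2 stood at the top of these and were singled out after their values were seen. Lrrc8c, a subunit of volume-regulated anion channels, read 8.93, 9.02, 8.88, 8.98 and 8.81 on KO PDE10i arrays 34, 35, 36, 37 and 39, and 8.56, 8.66, 8.63, 8.7, 8.68 and 8.57 on WT vehicle arrays 1 to 6. Its lowest KO PDE10i array was above its highest WT vehicle array (difference 0.29 ± 0.054, adjusted p = 0.0644), and it passed in 8 of 22 alternative fits. P4ha2, a subunit of the enzyme that hydroxylates proline in collagen, read 7.07, 7.34, 7.11, 7.2 and 7.06 on KO PDE10i arrays, and 6.87, 6.67, 6.86, 6.85, 6.83 and 6.69 on WT vehicle arrays. The groups were again apart (0.36 ± 0.070, adjusted p = 0.0771), and it passed in 5 of the 22.

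None of 40 gene lists had a member past the threshold. They held 599 tested genes, of which 54 had an unadjusted p under 0.05 (38 higher, 16 lower, 9.02%), against 7.33% of all tested genes. The median difference over the list genes was 0.0131 and over all genes 0.0134, and 57.37% of all genes had a positive sign.

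Genes of the pathway that PDE10A belongs to had medians near that of all genes. Of 17 phosphodiesterase genes 11 were positive (median 0.04), and the smallest p was that of Pde9a, a cGMP-specific enzyme (0.20 ± 0.085, adjusted p = 0.622). Cyclases and G proteins had a median of 0.03 over 19 genes, with Adcy6, an adenylyl cyclase, at 0.13 ± 0.051 (adjusted p = 0.565). Protein kinase A, protein kinase G and Epac genes had a median of 0.01 over 16 genes, with Prkar2a, a regulatory subunit of protein kinase A, at 0.17 ± 0.056 (adjusted p = 0.425). The CREB family and its targets had a median of 0.01 over 15 genes, and the most different was Sik1, a kinase that CREB induces (0.23 ± 0.072, adjusted p = 0.385). Early response genes divided evenly, 15 of 30 positive with a median of 0.0008, and Nptx2, a pentraxin induced by activity, had the smallest p (-0.46 ± 0.157, adjusted p = 0.456). A median does not show members that move both ways. In the order of these lists 2 of 17, 3 of 19, 1 of 16, 2 of 15 and 5 of 30 genes had an unadjusted p under 0.05. The share over all tested genes was 7.33%. Of the 5 early response genes 2 were higher and 3 lower.

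Other lists leaned one way without a passing member. Of 14 glucocorticoid-responsive genes 12 were positive (median 0.21), and 7 had an unadjusted p under 0.05, all positive. Zbtb16, a transcription factor induced by glucocorticoids, averaged 9.86 ± 0.171 in KO PDE10i and 9.53 ± 0.209 in WT vehicle (SD; difference 0.33 ± 0.093, adjusted p = 0.305). All 10 oligodendrocyte and myelin genes were negative (median -0.19), among them Opalin, a myelin membrane protein (8.49 ± 0.336 in KO PDE10i and 9.01 ± 0.288 in WT vehicle, difference -0.52 ± 0.167, adjusted p = 0.391). Precursors of these cells gave 6 of 7 negative (median -0.21), with Pdgfra, their growth factor receptor, at -0.23 ± 0.078 (adjusted p = 0.457). Neuropeptide and granin genes gave 16 of 22 positive (median 0.11), with Tac1, the substance P precursor, at 0.51 ± 0.161 (adjusted p = 0.391). Heat shock and ER chaperones gave 17 of 20 positive (median 0.06), with Dnaja1 at 0.11 ± 0.042 (adjusted p = 0.510). RGS proteins gave 12 of 15 negative (median -0.04).

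Marker lists of the cell types that a hippocampal dissection can hold also had no passing member. Microglia had a median of -0.07 over 10 markers, and their receptor P2ry12 averaged 8.07 ± 0.188 in KO PDE10i and 8.48 ± 0.180 in WT vehicle (SD), without overlap (-0.42 ± 0.097, adjusted p = 0.198). Vascular markers were positive for 11 of 12 (median 0.07), with Rgs5, a pericyte gene, at 0.22 ± 0.053 (adjusted p = 0.198). Ependymal markers were positive for 7 of 7 (median 0.22), and their summed linear signal was 594 to 1189 in KO PDE10i and 465 to 868 in WT vehicle arrays. Choroid plexus markers had a median of 0.002, with summed signals of 4500 to 29773 in KO PDE10i and 3662 to 29202 in WT vehicle arrays, a wide spread within both groups. Markers of dentate granule cells, of the CA1, CA2 and CA3 fields, of interneurons and of astrocytes had medians between -0.06 and 0.06. Striatal neuron markers had a median of 0.02 over 19 genes, and neurogenesis markers one of -0.11 over 10. Thalamic and habenular markers, of neighbouring tissue, were negative for 8 of 11 (median -0.13), and fibroblast and meningeal matrix genes positive for 11 of 12 (median 0.11). The part of these cell types in the results was not tested. The 3′ minus 5′ difference of the Gapdh control probe sets, which rises as RNA is shortened, was 0.225 ± 0.113 in KO PDE10i and 0.146 ± 0.110 in WT vehicle (SD, n = 5 and 6). With this difference as a covariate 3 genes passed, of which 2 on chromosome 17.

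Genes of general metabolism and of neuronal signalling had medians near that of all genes. Nuclear genes of oxidative phosphorylation had a median of 0.01 over 70 genes, and cytosolic ribosomal proteins one of -0.01 over 39. Cholesterol synthesis genes had a median of -0.003 over 17, with Sc5d, a desaturase of the pathway, apart from the rest at -0.24 ± 0.056 (adjusted p = 0.198). Another Sc5d probe set of similar brightness differed by 0.05, and a dimmer one by -0.16. Glutamate receptor subunits had a median of 0.04 over 20, with Grik2, a kainate receptor, at -0.34 ± 0.101 (adjusted p = 0.365). The second Grik2 probe set, of similar brightness, differed by -0.03. Medians of GABA receptor, potassium channel, sodium and calcium channel, presynaptic release, calmodulin kinase, ERK feedback and circadian clock genes lay between -0.02 and 0.03.

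The same contrast in striatum passed 20 genes (7 higher, 13 lower, 0.11% of all), and the difference between regions was tested gene by gene. It passed 7 genes (0.0385%), beside 794 with an unadjusted p under 0.05 (4.36%). The fit took the arrays of both regions as independent, although they may come from the same mice. In striatum 6 of the 7 passed the test on their own, and Rps6ka5 did not (adjusted p = 0.0516). In hippocampus none did. The striatal groups were small and uneven. Neurod6 ran from 4.6 to 8.85 in KO PDE10i and 3.78 to 7.96 in WT vehicle striatum. The Gapdh 3′ minus 5′ difference ran from 0.142 to 0.674 and from 0.178 to 1.054 in these groups. The part of dissection and RNA quality in the striatal values was not tested. Pdyn, the prodynorphin gene of striatal projection neurons and dentate granule cells, read 5.82, 5.95, 6.32, 6.11 and 6.07 on KO PDE10i hippocampal arrays 34, 35, 36, 37 and 39, against 5.63 to 6.26 with a median of 5.93 on WT vehicle arrays. The hippocampal groups overlapped (0.12 ± 0.115), while in striatum Pdyn averaged 9.31 ± 0.254 in KO PDE10i and 8.03 ± 0.159 in WT vehicle (SD, n = 4 and 5, log2 difference 1.28). The hippocampal effect minus the striatal one was -1.16 (limma adjusted p = 0.0382). Slc7a8, an amino acid transporter, differed by -0.05 ± 0.062 in hippocampus and 0.78 in striatum (difference -0.83, adjusted p = 0.00315). Fam43a differed by 0.01 ± 0.094 and 0.85 (difference -0.84, adjusted p = 0.0376).

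The other 4 of these genes were lower in KO PDE10i striatum. Rps6ka5, a kinase that phosphorylates CREB and histone H3, differed by 0.09 ± 0.047 in hippocampus and -0.83 in striatum (difference 0.92, adjusted p = 0.0136). Gpat2, a mitochondrial acyltransferase, differed by 0.13 ± 0.075 and -0.53 (difference 0.66, adjusted p = 0.0136). Ptprv, a receptor tyrosine phosphatase, differed by 0.04 ± 0.077 and -0.83 (0.87, adjusted p = 0.0292), and Gask1b by 0.12 ± 0.111 and -0.81 (0.93, adjusted p = 0.0482). Gpat2 and Rps6ka5 were singled out after their values were seen. Hippocampal signals of Gpat2 and Gask1b were low, with means of 3.88 and 4.50 in KO PDE10i and 3.74 and 4.38 in WT vehicle hippocampus, so a change there would be hard to see. Their striatal signals were low as well, with means of 3.885 and 4.79 in KO PDE10i and 4.41 and 5.60 in WT vehicle striatum. Rps6ka5 and Slc7a8 were bright in hippocampus (means 7.87 and 7.99 in KO PDE10i, 7.78 and 8.04 in WT vehicle).

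The other 10 genes of the list of striatal responders did not pass the test of the difference. Nnat, which codes for the membrane protein neuronatin, differed by 0.35 ± 0.160 in hippocampus and 1.16 in striatum (adjusted p of the difference = 0.604), and Clspn, a protein of the replication checkpoint, by -0.20 ± 0.113 and -1.33 (0.113). Nnat read 10.57, 10.73, 10.77, 10.44 and 10.68 on KO PDE10i hippocampal arrays, against 9.74 to 10.64 with a median of 10.41 on WT vehicle arrays, so the groups overlapped. Pde1c, a calmodulin-dependent phosphodiesterase, differed by -0.26 ± 0.153 in hippocampus and 0.56 in striatum, and Fst, the activin antagonist follistatin, by 0.27 ± 0.118 and -0.31 (adjusted p of the difference = 0.414). The promoter windows of 6 of the 7 region-difference genes, 7 windows in all, held no full CREB motif and 1 short form, in Rps6ka5 (14.3%).

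**Figure D5:**
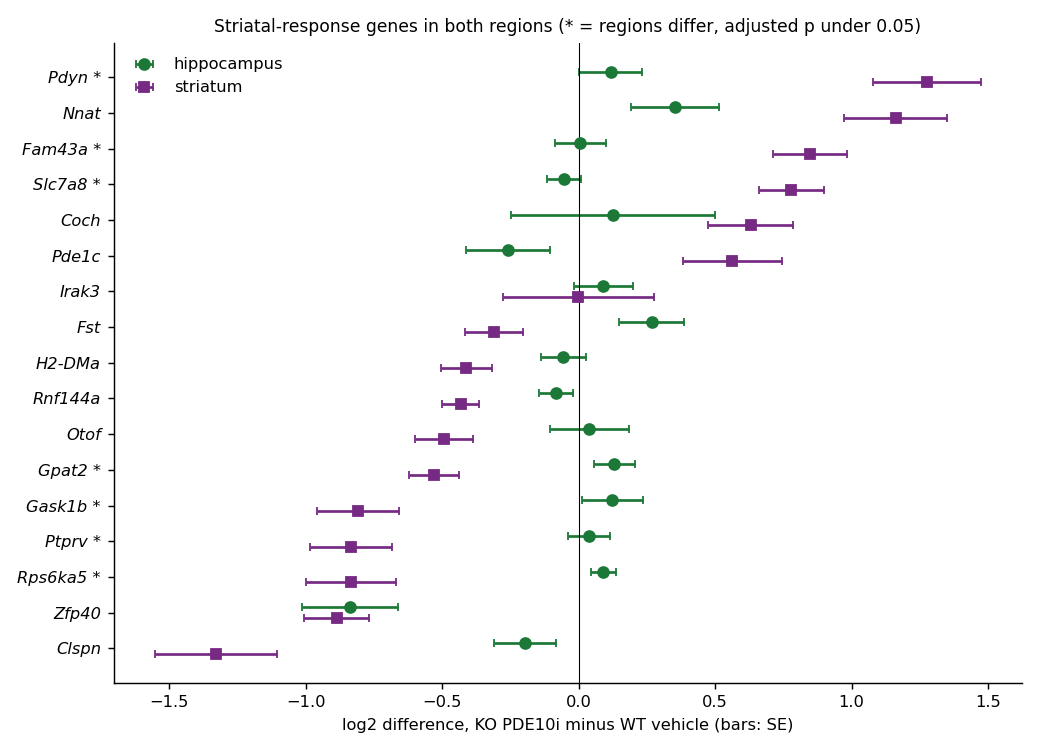
Log2 difference, KO PDE10i minus WT vehicle, with its SE, for 17 genes in hippocampus (circles) and striatum (squares). Asterisks mark the 7 genes whose difference between regions passed an adjusted p of 0.05. Zfp40 of chromosome 17 lies at the same place in both regions, while Pdyn, Fam43a, Slc7a8, Gpat2, Gask1b, Ptprv and Rps6ka5 lie near 0 in hippocampus only.

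The count of region differences also rested on single arrays. It was 1 without KO PDE10i 39 of either region. It was 3 without hippocampal KO PDE10i 34 or WT vehicle 3, and without striatal KO PDE10i 37 or WT vehicle 2, 3 or 4. It was 4 without hippocampal KO PDE10i 35 or 37 or WT vehicle 1, 5 or 6, or striatal KO PDE10i 34. Without the 8 doubted arrays of both regions it was 31. The striatal count of 20 was 9, 1 and 2 without striatal KO PDE10i 34, 37 and 39, and 4 and 10 without striatal WT vehicle 3 and 4. Without striatal KO PDE10i 35 it was 16, but 2413 genes had an unadjusted p under 0.05 (limma), in place of 1139.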

How the data were processed

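Total RNA of microdissected mouse brain regions was labelled with biotin and hybridised to Affymetrix arrays, 1 sample per array, per the labels' protocols. The authors deposited 1 table of log2 signals for 45101 probe sets, and the submitters' processing notes name RMA as the method. Its values ran from 2.55 to 15.1. Background, quantile normalization and summarisation are steps of RMA, and whether all arrays were run together is not given there. The depth of an array has no count, and the number of arrays limits the precision. No hippocampal arrays were duplicates, since the SD of the difference was 0.167 in the closest pair (r = 0.997).

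The platform annotation gave each probe set its gene, matched by gene identifier to RefSeq (GRCm38.p6), which gave names, chromosomes, gene order and promoter windows. After 64 control probe sets were left out, 34945 had 1 gene, 932 several and 9160 none, and 34741 of the 34945 matched RefSeq. Each of 18193 genes was represented by its brightest probe set, by the mean over 42 arrays, and 9010 genes had more than 1.

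Groups were taken from the titles. Differences were fitted with limma 3.58.1 in R 4.3.3 (functions lmFit and eBayes). Tests were two-sided, p-values were adjusted by Benjamini-Hochberg over all 18193 genes, and the threshold was 0.05. The 4 hippocampal groups shared a fit, and the region difference used all 42 arrays in 8 groups. The fit was tested on simulated data. Signals within a list were summed on the linear scale for cell type markers.

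The arrays, genes and the 40 gene lists were chosen with earlier results of these data known. The text names Pde10a, genes past the threshold (up to 15 in each direction), the member of each list with the smallest p, and 15 genes that had moved in striatum. Other names, beside the regional markers of the tissue check, are marked as chosen after their values were seen. Alternatives changed the arrays in the fit, array weights, the probe set rule, a filter on mean log2 of at least 6, the scaling, the eBayes options, a Gapdh covariate and the replicate block, and each array of the compared groups was left out in turn.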

Additional observations from a re-analysis of the deposited data

Results flagged for a closer look

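Among 61 genes whose arrays were examined, 7 of 122 groups held an array far from the others of its group, and chance flags about 1 group in 20. In KO PDE10i array 35 lay apart in 4 genes. Its Alas2 signal, a gene of haem synthesis, was 6.48 where the other KO PDE10i arrays read 5.98 to 6.04. Its Grik2 signal was 6.58 (others 7.05 to 7.11), its Sc5d signal 8.43 (others 8.59 to 8.61) and its Ptprv signal 6.05 (others 6.23 to 6.28). In WT vehicle array 1 lay apart in Mki67, a marker of dividing cells, at 6.16 (others 4.24 to 4.83), and in Dnaja1 at 11.17 (others 11.34 to 11.4). WT vehicle array 4 had an Rpl39 signal of 7.54 (others 7.6 to 7.64).

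The effect of KO PDE10i against WT vehicle differed between hippocampus and striatum, by the test of the difference itself, in 7 genes. That test took the arrays of both regions as independent, on which the count depended. Hippocampal minus striatal effects were -1.16 for Pdyn, -0.84 for Fam43a and -0.83 for Slc7a8, which were higher in striatum, and 0.93 for Gask1b, 0.92 for Rps6ka5, 0.87 for Ptprv and 0.66 for Gpat2, which were lower in striatum.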

How the results depend on the processing

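The 6 genes past the threshold kept their direction in all 22 alternatives of the hippocampal fit. Their groups did not overlap, so leaving out 1 array could not change a direction. Tmem181a passed in 17, Lix1 in 14, Prr18 in 12, Map3k4 in 11, Wtap in 9 and Kctd5 in 7 of them. The count of passing genes, 6 with all 6 on chromosome 17, was 22 (20 on chromosome 17) with only the groups compared, 25 (23) without the doubted arrays, 22 (13) with array weights, 3 (3) with the mean of a gene's probe sets, 10 (8) with quantiles normalized again and 10 (8) with arrays centred on their median, 3 (2) with the Gapdh covariate, and 12 (10) with all 42 arrays, an alternative chosen after seeing the data. After median centring 7 of the 10 were higher, against 3 of 6. The count was 5 to 8 with every probe set, the filter on dim genes or the trend and robust options. Leaving out 1 array gave 0 to 7, of which 0 to 6 on chromosome 17. The region difference, 7 genes, gave 27 with only the groups compared, 31 without the 8 doubted arrays, 28 with array weights, 3 over every probe set, 4 with the Gapdh covariate, and 1 to 10 without 1 array. The striatal count of 20 was 55 with only the groups compared, 112 without the doubted arrays and 1 to 18 without 1 array. Without the 4 doubted arrays, an alternative chosen after seeing the data, KO vehicle against WT vehicle passed 15 genes in place of 0, and KO against WT on inhibitor 10 in place of 1. Those arrays are members of the groups compared there and were singled out by chromosome 17 signals, which fixes these higher counts in part. Fewer arrays were fitted where arrays were left out. The cause of the moves in this section was not tested further.

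Array numbers recur in both regions, and the labels do not say whether they mark animals. Of 20 same-numbered pairs 6 correlated above 0.1 (median r of the deviations -0.04) and 2 correlated best with their own number. Such correlations between different regions cannot exclude that these pairs come from the same mice. The numbers were not taken as pairing in the main fit, and the result depended on that choice. With the number as a random replicate block the region difference passed 7 genes, and as a fixed replicate block 0 (limma, 807 at an unadjusted p under 0.05, smallest adjusted p = 0.0775). Within hippocampus no paired analysis was possible because the 2 groups share no array number. A low signal in hippocampus, as for Gpat2 and Gask1b, limits what can be seen there.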

Other observations

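Srrm2, a splicing factor gene of chromosome 17, passed the threshold when every probe set was tested, through a probe set that is not its brightest (log2 difference 0.85 ± 0.146 SE, adjusted p = 0.0484 over 34945 probe sets), and was singled out after its value was seen. Of the 5 probe sets past the threshold in that fit, the other 4 belong to Tmem181a, Prr18, Map3k4 and Lix1, and all 5 genes lie on chromosome 17. Outside chromosome 17, beside Lrrc8c and P4ha2, Timmdc1, a gene for a protein needed for assembly of respiratory complex I, passed in 2 of 22 alternatives, Micalcl also in 2, and the other 7 genes in 1 each. Both names were chosen after the values were seen.

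The 39 genes outside chromosome 17 with an unadjusted p under 0.001 had the same sign in striatum for 34 of 39, beside 865 of the 1199 such genes with an unadjusted p under 0.05. Tasor, a subunit of a complex that silences genes through chromatin, had the largest difference among them (-0.55 ± 0.119, adjusted p = 0.132), and Id4, an inhibitor of helix-loop-helix factors in neural progenitors, differed by -0.32 ± 0.083 (adjusted p = 0.230). Both were singled out after their values were seen.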
